A study of Mus musculus with 4 samples.

Results

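Promoters of long non-coding RNA (lncRNA) genes were examined for KMT9alpha, KMT9beta and monomethylated lysine 12 of histone H4 (H4K12me1) in chromatin of mouse colorectal tumour organoids. The members were windows of 1 kb either side of each annotated start of a lincRNA or antisense gene of GENCODE M21 on chromosomes 1 to 19, kept where no start of a protein-coding gene lay within 2 kb. These conditions left 8766 windows of 6498 genes, from 11210 starts of 8122 genes before the distance condition, among 125977 starts of all gene types. There were 6529 windows of 4768 lincRNA genes and 2237 windows of 1730 antisense genes. A member was an annotated start, and whether it was transcribed in the organoids was not measured here.

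The organoids came from 1 clone (clone 3, passage 14) of AOM/DSS tumours, which are induced in mice with the carcinogen azoxymethane and the colitis-inducing agent dextran sulfate sodium. The medium contained murine EGF, and the protocol names tamoxifen at 1 µM and vehicle without assigning either to a library. Genotype is given as NA, and by their labels the groups differ in the antibody. Each of the 3 antibodies had 1 library, so no value has a replicate check, no test between groups was possible, and the input library was not used here. Deposited peak lists held 25700 KMT9alpha, 89936 KMT9beta and 60058 H4K12me1 peaks on these chromosomes. Library depth is unknown. A missing peak is therefore only a position not called, and shares of different antibodies are not levels of binding. As a check of the labelled tissue, 9 of 10 epithelial genes had a KMT9alpha peak at a protein-coding start, against 56.7% of all protein-coding genes. All 3 at the same start were found at 7 of the 10, against 37.5%, Epcam, Cdh1, Krt8 and Cdx1 among them. Of 9 genes of immune, stromal, endothelial or neuronal cells, 2 had a KMT9alpha peak and none had all 3. KMT9beta was called at 6 of these 9 and H4K12me1 at 5, close to the 69.6% and 50.4% of all protein-coding genes.

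KMT9 is a methyltransferase of 2 subunits, KMT9alpha (encoded by N6amt1) and KMT9beta (encoded by Trmt112). KMT9alpha holds the catalytic site and KMT9beta is a cofactor that also partners other methyltransferases. The complex is known to write H4K12me1 at promoters of active genes, many of them in proliferation. lncRNA genes are transcribed by the same polymerase as protein-coding genes, but their promoters are usually poorer in CpG dinucleotides, are used in fewer tissues and are less conserved. CpG-rich promoters of either kind tend to be open in many cell types.

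The sequences of 5 lncRNA promoters show some of the CpG contents and peak combinations described below. They were chosen after their values were seen. Each runs from 250 bases before to 50 bases from the annotated start, 5′ to 3′ on the strand of the transcript, from the GRCm38 genome, with CpG dinucleotides in capitals. Malat1 (CpG-rich, all 3 peaks) lies at chr19:5802623-5802922 on the minus strand, and Frmd8os (its CpG-poor start, all 3) at chr19:5848258-5848557 on the plus strand. A730035I17Rik (CpG-rich, KMT9beta and the mark without KMT9alpha) lies at chr5:98185935-98186234 on the minus strand. Nkx2-2os (CpG-rich, no peak) lies at chr2:147183833-147184132 on the plus strand, and Hotair (CpG-poor, no peak) at chr15:102947681-102947980 on the minus strand.
Malat1: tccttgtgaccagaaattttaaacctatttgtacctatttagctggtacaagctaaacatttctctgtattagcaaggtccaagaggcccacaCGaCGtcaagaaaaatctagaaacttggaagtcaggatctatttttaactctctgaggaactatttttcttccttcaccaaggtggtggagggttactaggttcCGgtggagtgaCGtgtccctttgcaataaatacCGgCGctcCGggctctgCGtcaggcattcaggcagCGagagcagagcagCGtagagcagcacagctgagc
Frmd8os: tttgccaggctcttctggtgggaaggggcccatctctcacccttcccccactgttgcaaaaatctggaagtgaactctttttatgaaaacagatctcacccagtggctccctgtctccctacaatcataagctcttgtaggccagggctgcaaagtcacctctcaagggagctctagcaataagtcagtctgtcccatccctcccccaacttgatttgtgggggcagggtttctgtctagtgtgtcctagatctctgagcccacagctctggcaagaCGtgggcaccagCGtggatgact
A730035I17Rik: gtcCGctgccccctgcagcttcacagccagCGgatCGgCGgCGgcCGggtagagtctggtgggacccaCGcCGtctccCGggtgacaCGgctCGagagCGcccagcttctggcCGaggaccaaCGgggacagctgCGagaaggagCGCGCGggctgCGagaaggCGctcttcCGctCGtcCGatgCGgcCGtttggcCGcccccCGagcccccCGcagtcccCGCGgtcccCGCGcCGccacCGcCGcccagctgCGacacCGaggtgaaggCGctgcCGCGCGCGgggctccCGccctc
Nkx2-2os: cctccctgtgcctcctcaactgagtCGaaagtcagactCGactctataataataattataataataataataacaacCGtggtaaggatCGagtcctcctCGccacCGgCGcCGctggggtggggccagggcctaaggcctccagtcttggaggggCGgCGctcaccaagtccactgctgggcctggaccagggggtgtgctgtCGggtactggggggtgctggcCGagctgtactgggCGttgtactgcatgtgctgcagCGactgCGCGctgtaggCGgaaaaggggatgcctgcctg
Hotair: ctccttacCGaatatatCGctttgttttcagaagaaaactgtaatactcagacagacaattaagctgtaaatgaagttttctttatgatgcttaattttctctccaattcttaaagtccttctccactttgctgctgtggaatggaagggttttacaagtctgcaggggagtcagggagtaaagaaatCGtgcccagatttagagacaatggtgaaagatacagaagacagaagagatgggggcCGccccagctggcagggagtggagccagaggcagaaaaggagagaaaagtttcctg

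Within these 300 bases A730035I17Rik held 43 CpG dinucleotides, Nkx2-2os 17, Malat1 10, Hotair 4 and Frmd8os 2. The CpG observed/expected ratio of the full window was 0.92, 0.74, 0.73, 0.22 and 0.19 in the same order. This ratio divides the number of CpG dinucleotides by the number that the C and G content alone would give. Over all lncRNA windows the median ratio was 0.22 (quartiles 0.16 and 0.29), so the 2 lower examples are typical of the set. In these examples peaks were present and absent both at CpG-rich starts and at starts near that median.

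Most lncRNA windows had no peak. None of the 3 was called in 6286 of 8766 windows (71.7%, exact Clopper-Pearson 95% interval 70.8 to 72.7), and 2480 windows (28.3%) of 1786 genes had at least 1. A KMT9alpha peak overlapped 747 windows (8.52%, 7.95 to 9.13), against 37.6% of windows around annotated starts of any gene type. KMT9beta overlapped 1999 (22.8%, 21.9 to 23.7), against 51.4% of all starts. H4K12me1 overlapped 1185 (13.5%, 12.8 to 14.3), against 33.1%. All 3 were present in 341 windows (3.89%, 3.49 to 4.32), against 23.5%. In each case the lncRNA share lay under that of starts in general. The order of the antibodies follows the length of their lists, and with the same number of top peaks taken from each list the shares were 8.52%, 8.56% and 6.39%, with all 3 at 1.86%. Over peaks at or above the median score of their list they were 4.97%, 14.3%, 7.45% and 1.56%. The intervals cover counting over windows only, and treat windows as separate although 2947 (33.6%) overlap another of the set.

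Peaks were nevertheless more frequent at lncRNA starts than away from any start. The comparison was with 1060004 windows of equal length whose centres lay over 2 kb from every annotated start, weighted to the CpG ratios of the lncRNA windows in 5 classes. The background share was 2.34% for KMT9alpha, 12.4% for KMT9beta, 7.14% for H4K12me1 and 0.973% for all 3. The lncRNA share was thus 3.64 times the background for KMT9alpha, 1.83 times for KMT9beta, 1.89 times for H4K12me1 and 4.0 times for all 3. With CpG classes of width 0.05 these ratios were 2.82, 1.64, 1.68 and 2.74.

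lncRNA windows also fell short of protein-coding windows with the same CpG ratio. The median CpG ratio was 0.22 at lncRNA windows, 0.38 at 90310 protein-coding windows and 0.16 in the background. Weighted over 5 CpG classes, protein-coding windows had a KMT9alpha peak in 22.2%, 13.7 percentage points above the lncRNA windows (95% interval of the difference, lncRNA minus protein-coding, -14.3 to -13.0). The difference was -17.9 points (-18.8 to -16.9) for KMT9beta, -11.6 (-12.4 to -10.8) for H4K12me1 and -9.3 (-9.7 to -8.9) for all 3. The top class is wide, and its protein-coding windows had a median ratio of 0.60 against 0.39 at lncRNA windows. With classes of width 0.05 the differences were -8.1 points for KMT9alpha (-8.7 to -7.5), -14.1 for KMT9beta, -8.5 for H4K12me1 and -5.0 for all 3. With CpG classes crossed with GC content they were -9.9, -10.3, -5.9 and -5.5. The sign was the same under each weighting, while the size depended on it.

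Both kinds of promoter gained peaks with CpG ratio, but by different amounts. KMT9alpha rose from 6 of 631 lncRNA windows (0.951%) under a ratio of 0.1 to 54 of 73 (74.0%, 62.4 to 83.5) at 0.7 or more. Protein-coding windows went from 1.64% to 93.9%. The gap in KMT9alpha was widest from 0.4 to 0.5, with 24.0% of 430 lncRNA windows against 63.8% of protein-coding windows. KMT9beta there reached 48.8% against 77.7%, and H4K12me1 24.9% against 46.3%.

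**Figure D1:**
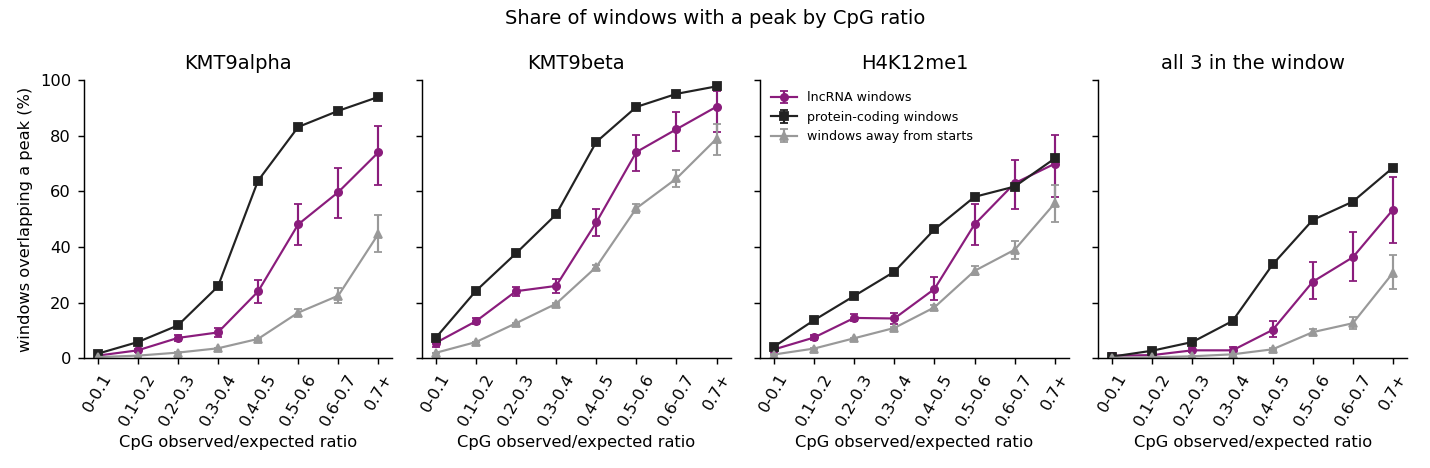
Share of windows overlapping a peak (%, y) by CpG observed/expected ratio of the window (x) for the 3 lists and for all 3 together, with exact 95% intervals as bars. In KMT9alpha the lncRNA windows run between the protein-coding windows and those away from starts, at 24.0%, 63.8% and 6.96% for ratios of 0.4 to 0.5, while in H4K12me1 the lncRNA and protein-coding points meet at 0.6 and above.

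At the most CpG-rich lncRNA starts the histone mark was called at about the share of protein-coding ones, while both subunits of its enzyme were called less often. There were 197 lncRNA windows of 126 genes with a ratio of 0.6 or more. H4K12me1 was called at 129 of them (65.5%, 58.4 to 72.1), against 65.3% at protein-coding windows of matched ratio, a difference of 0.2 points (-6.5 to 6.8). KMT9alpha was called at 128 (65.0%, 57.9 to 71.6), against 90.6%, a difference of -25.6 points (-32.3 to -19.0). KMT9beta was called at 168 (85.3%, 79.5 to 89.9), against 95.9%, a difference of -10.6 points (-15.6 to -5.7). With 1 window per gene the differences were -5.5 points for the mark (-14.1 to 3.0), -28.9 for KMT9alpha (-37.5 to -20.3) and -11.0 for KMT9beta (-17.4 to -4.6). The interval for the mark allows a deficit of up to 14.1 points, so an equal share is not shown. From 0.4 to 0.6, by contrast, the mark was lower at lncRNA windows by 17.5 points (-21.3 to -13.7).

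In that CpG-rich group 38 windows (19.3%, 14.0 to 25.5) of 28 genes carried H4K12me1 with no KMT9alpha peak, against 3.84% of protein-coding windows. Most of them, 33 windows of 24 genes, held KMT9beta as well. A730035I17Rik on chromosome 5 is an example. Its 4 windows had ratios of 0.89 to 0.92, a KMT9beta peak of score 103.88 and an H4K12me1 peak of 186.61. Hoxaas3, in the Hoxa cluster, and Mir124a-1hg, host of the neuronal microRNA miR-124, were others. Mir124a-1hg had the mark alone, at a score of 71.81. The score is the value that the authors' peak caller gave each peak, with a minimum of 50 in each list, and is compared only within a list. Where KMT9alpha was absent, the mark was called at 38 of 69 CpG-rich lncRNA windows (55.1%, 42.6 to 67.1) and at 46.6% of such protein-coding windows. Where it was present, the mark was called at 71.1% and 69.3%.

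Only 15 of the 197 CpG-rich windows (7.61%, 4.32 to 12.2) had none of the 3, of 12 genes, against 1.63% of protein-coding windows. Nkx2-2os, Rmst and Mir124-2hg were the only ones of these genes with a given symbol, as opposed to a clone or model symbol. All 3 are known from the developing nervous system or, for Nkx2-2os, also from the pancreas. Mir124a-1hg, the neuronal microRNA host named above, is in the same CpG-rich group and had the mark, so such genes did not all lack peaks. The Nkx2-2os start lay 2018 bp from the nearest protein-coding start, just inside the distance condition.

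Peaks gathered around the annotated start of CpG-rich lncRNAs. At starts with a ratio of 0.4 or more, 32.4% lay under a KMT9alpha peak, 50.1% under KMT9beta and 24.4% under H4K12me1. Coverage 5 kb away was 2.82%, 10.6% and 4.66%, so the start stood 11.5, 4.73 and 5.24 times higher. For protein-coding starts of that ratio range KMT9alpha covered 80.1% of starts and stood 29.3 times above its level 5 kb away. KMT9alpha at lncRNAs was highest 200 bp downstream (33.6%) and reached further downstream than upstream, with 28.1% covered 500 bp after the start and 18.5% 500 bp before it. Protein-coding starts of that ratio range leaned the same way, with 69.7% and 52.3%. Under a ratio of 0.4 the starts of lncRNAs were covered by KMT9alpha in 2.88% of cases, 1.94 times the level 5 kb away. For protein-coding starts under that ratio these values were 6.63% and 2.11 times.

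**Figure D2:**
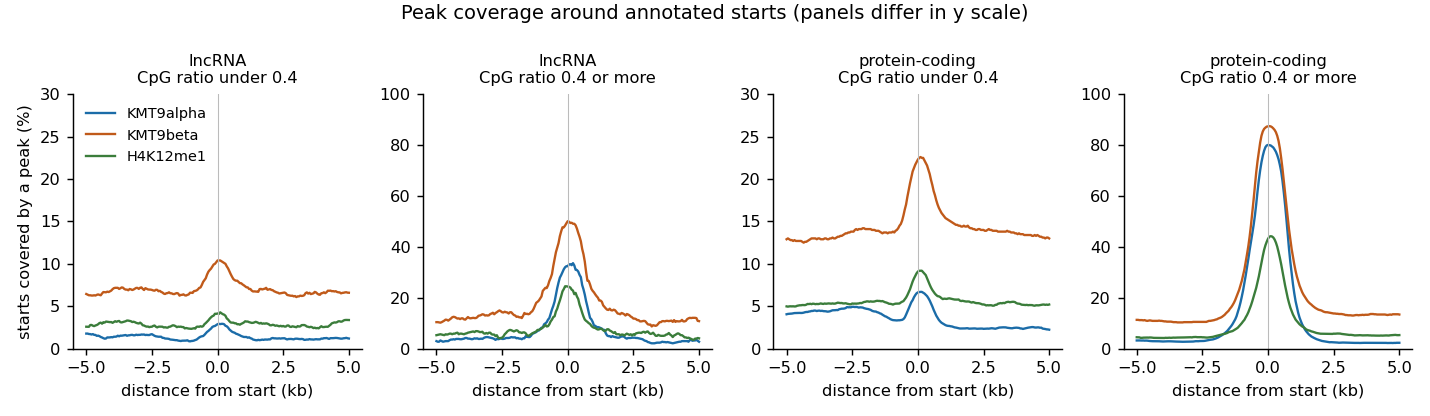
Share of starts covered by a peak (%, y, with a different scale in the 0.4-or-more panels) at each distance from the start (kb, x, positive downstream) for lncRNA and protein-coding starts in both CpG ranges. Coverage in each panel is highest within 200 bp of the start, and at the start itself runs in KMT9alpha from 2.88% at CpG-poor lncRNAs to 80.1% at CpG-rich protein-coding genes.

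The subunits and the mark met in the same windows. KMT9beta was present at 591 of 747 KMT9alpha windows (79.1%, 76.0 to 82.0), against 17.6% of windows without KMT9alpha. At protein-coding windows with KMT9alpha it was present in 95.1%. H4K12me1 was called at 57.7% of the 591 windows with both subunits (53.6 to 61.7), 28.2% of 156 with KMT9alpha alone, 33.7% of 1408 with KMT9beta alone and 4.92% of 6611 with neither. The corresponding protein-coding shares were 66.0%, 26.5%, 42.7% and 7.17%. Read from the mark, 385 of 1185 H4K12me1 windows (32.5%, 29.8 to 35.2) had KMT9alpha and 68.9% had KMT9beta, against 75.6% and 92.1% at protein-coding windows. CpG content moves with each of these shares.

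The most frequent state with a peak was KMT9beta alone, in 933 windows (10.6%). KMT9beta with H4K12me1 followed at 475 windows (5.42%), all 3 at 341, H4K12me1 alone at 325, both subunits without the mark at 250, KMT9alpha alone at 112 and KMT9alpha with the mark at 44. Beside protein-coding windows weighted in classes of width 0.05, every state with KMT9beta was lower. The states with both subunits were at 2.85% against 5.57% without the mark and 3.89% against 8.90% with it. KMT9beta with the mark but no KMT9alpha was at 5.42% (4.95 to 5.91) against 8.90%, and KMT9beta alone at 10.6% (10.0 to 11.3) against 13.5%. KMT9alpha alone was lower too, at 1.28% (1.05 to 1.54) against 1.63%. With 5 classes its protein-coding value was 1.42%, inside that interval. KMT9alpha with the mark (0.502%, 0.365 to 0.673, against 0.540%) and H4K12me1 alone (3.71%, 3.32 to 4.12, against 3.70%) did not differ by more than their intervals. In 286 of the 341 windows with all 3 (83.9%, 79.5 to 87.6) the peaks themselves overlapped pairwise, against 95.5% at protein-coding windows.

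**Figure D3:**
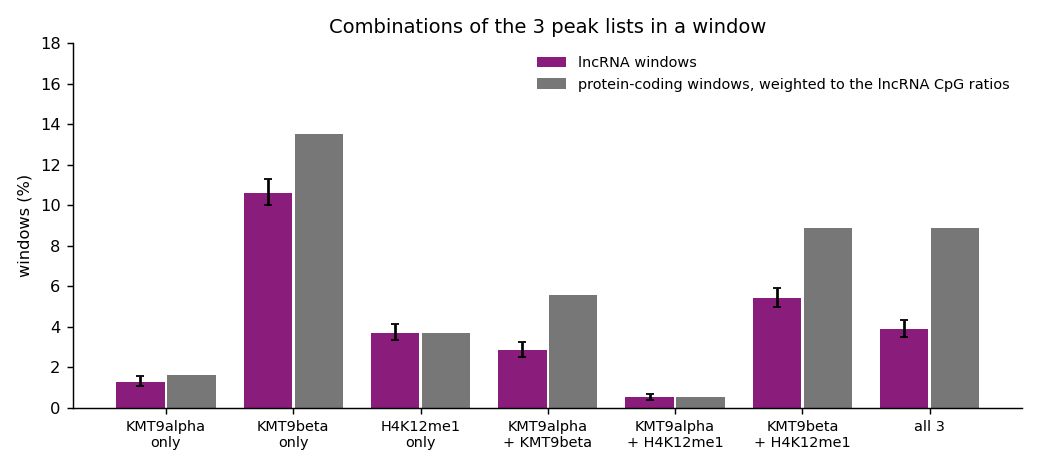
Share of windows (%, y) in each combination of peaks, for lncRNA windows with exact 95% intervals and for protein-coding windows weighted to the lncRNA CpG ratios in classes of width 0.05. Each combination with KMT9beta is less frequent at lncRNAs (for all 3, 3.89% against 8.90%), as is KMT9alpha alone (1.28% against 1.63%). H4K12me1 alone is at 3.71% and 3.70%.

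KMT9alpha peaks at lncRNAs also ranked lower in their list. The highest KMT9alpha peak of a lncRNA window had a median percentile of 55.6 in its own list (quartiles 33.5 and 72.4), against 79.5 at protein-coding and 33 in background windows. These medians are over all CpG ratios. Under a ratio of 0.2 the lncRNA and protein-coding medians were 36.1 and 44.3, at 0.2 to 0.4 46.7 and 60.0, and at 0.4 or more 70.9 and 99.4. Scores of 3100 or more were held by 4949 KMT9alpha peaks, 19.3% of the list. Peaks tied at 3100 all take the percentile 99.4, so that value is the upper edge of a tie. A score of 3100 or more was reached by 125 of 747 windows (16.7%), against 46.9% at protein-coding windows. At a CpG ratio of 0.4 or more the shares were 31.4% and 51.9%. Over all ratios the lncRNA, protein-coding and background medians were 61.7, 85.6 and 49.7 for KMT9beta. For H4K12me1 they lay closer, at 54.8, 71.7 and 50.5. Within lncRNA windows the median KMT9alpha score was 617.96 with a KMT9beta peak and 226.87 without, and 530.14 with H4K12me1 and 387.96 without. The median CpG ratio of these windows also differed, at 0.39 and 0.28 for KMT9beta and 0.41 and 0.31 for H4K12me1. Its part in the scores was not tested.

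Distance to coding genes moved with every list. KMT9alpha was called at 12.4% of windows 2 to 5 kb from the nearest protein-coding start (10.1 to 15.0), 11.2% at 5 to 20 kb, 9.59% at 20 to 100 kb and 4.17% beyond 100 kb (3.45 to 5.0). KMT9beta went from 38.7% to 11.5%, H4K12me1 from 24.9% to 7.07% and all 3 from 6.73% to 1.45%. Median CpG ratio changed little over these classes, from 0.23 to 0.20. Just inside the distance condition, at 2 to 3 kb, 11.6% of 293 windows had KMT9alpha, and just outside it, at 1 to 2 kb, 30.2% of 420 did. Peaks that also reached a protein-coding window accounted for few members, since without them 732 windows had KMT9alpha in place of 747.

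**Figure D4:**
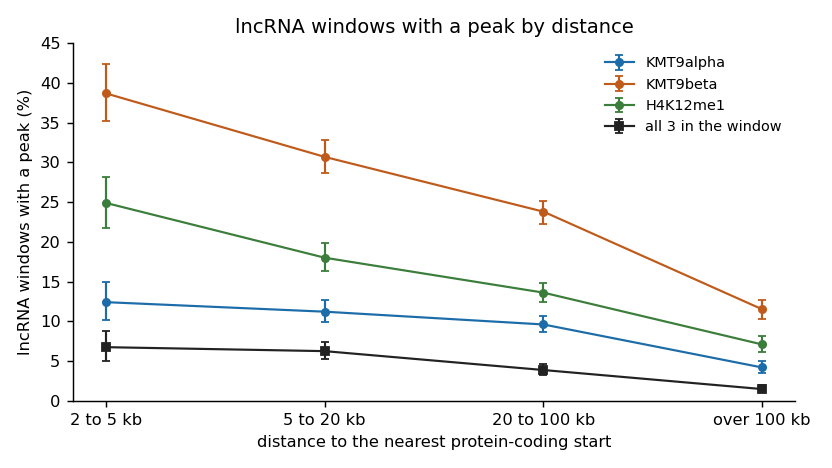
Share of lncRNA windows with a peak (%, y, exact 95% intervals) by distance to the nearest protein-coding start (x). KMT9beta falls from 38.7% at 2 to 5 kb to 11.5% beyond 100 kb, and KMT9alpha from 12.4% to 4.17%.

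The state of the neighbouring coding promoter also moved with the lncRNA window. At 2 to 5 kb from a coding start whose own window had all 3, 41 of 189 lncRNA windows had KMT9alpha (21.7%, 16.0 to 28.3) and 12.2% had all 3. Beside a coding window with none, 12 of 232 had KMT9alpha (5.17%, 2.70 to 8.86) and 0.862% had all 3. At 20 to 100 kb the KMT9alpha shares were 14.8% and 6.28%. Beyond 100 kb they were 4.85% (3.34 to 6.78) and 4.40% (3.30 to 5.75), with overlapping intervals.

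Antisense and lincRNA starts differed in KMT9beta and the mark, not in KMT9alpha beyond their intervals. KMT9beta was called at 29.9% of antisense windows (28.0 to 31.8) and 20.4% of lincRNA windows (19.4 to 21.4), and H4K12me1 at 17.6% (16.0 to 19.2) and 12.1% (11.3 to 12.9). KMT9alpha was at 7.87% (6.79 to 9.06) and 8.75% (8.07 to 9.46). Genes with a given symbol, as opposed to a clone or model symbol, had KMT9alpha in 20.8% of 528 windows, and 14.3% after weighting to the CpG classes of the set, against 7.73% of 8238. Windows in the lowest tertile of repeat content had KMT9alpha in 13.2% and those in the highest in 4.83%. After CpG weighting these shares were 11.4% and 6.04%. Transcripts of 1 exon had it in 15.4% of 441 windows (12.2 to 19.1) and spliced ones in 8.16%.

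Among 7 short elements searched on both strands in the 300 bases around each start, the GC box GGGCGG differed most, in percentage points, between starts with all 3 and with none. At window ratios of 0.4 or more, and with 1 window per gene, it alone had intervals that did not meet. For these elements the window kept per gene was the one with most of the 3 peaks, and among equals the most upstream. The window was thus chosen by the peaks compared here, while elsewhere the most upstream start was kept. The GC box was held by 10.2% of all lncRNA windows and 38.7% of all protein-coding windows. In the 300 bases around starts with a window ratio of 0.4 or more, it was found in 103 of 180 windows with all 3 (57.2%, 49.6 to 64.6) and in 41 of 239 with none (17.2%, 12.6 to 22.5). With 1 window per gene the shares were 53.6% of 110 and 15.4% of 169, and at protein-coding genes 70.2% and 37.1%. CCGGAAG, the core bound by ETS factors (3.63% of all lncRNA and 10.5% of all protein-coding windows), was found in 14.5% (8.55 to 22.5) and 5.33% (2.46 to 9.87) per gene, with intervals that meet. TATAAA, the TATA box (16.1% and 11.4% of all windows), was found in 5.45% (2.03 to 11.5) and 14.2% (9.32 to 20.4) per gene, again with intervals that meet. CCAAT (36.7% and 34.5% of all windows) was at 35.0% and 36.8% of windows. CACGTG, the E-box (5.64% and 7.08%), was at 15.5% (9.27 to 23.6) and 14.2% (9.32 to 20.4) per gene. TGACGTCA (1.10% of all lncRNA windows) was at 4.55% and 1.78% per gene and GCGCATGC (0.924%) at 0.909% and 1.18%, each in 5 genes or fewer. Under a ratio of 0.4, with 1 window per gene, the GC box was at 17.9% (11.6 to 25.8) with all 3 and 5.04% (4.42 to 5.72) with none, and CACGTG at 9.76% (5.14 to 16.4) and 4.36% (3.78 to 4.99), so the intervals of both did not meet there. Over windows of any ratio the intervals of the GC box (33.5 to 44.1 and 5.48 to 6.68) and CACGTG (10.6 to 18.2 and 4.17 to 5.23) did not meet. Those of CCGGAAG (6.26 to 12.7 and 2.42 to 3.26), TGACGTCA (1.62 to 5.70 and 0.536 to 0.975) and TATAAA (4.80 to 10.6 and 17.2 to 19.1) did not meet either. Over all windows at 0.4 or more, those of CCGGAAG (9.66 to 20.4 and 2.32 to 8.09) and TATAAA (2.70 to 9.98 and 11.1 to 20.7) also did not meet, unlike per gene. The median CpG ratio of the windows at 0.4 or more was 0.58 with all 3 and 0.45 with none, and its part in these differences was not tested.

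lncRNA windows with peaks were unevenly spread over chromosomes. For all 3 the share ran from 3 of 423 windows on chromosome 3 (0.709%) to 42 of 267 on chromosome 19 (15.7%), with a median over the 19 chromosomes of 2.81%. From 3 to 33 Mb of chromosome 5, a stretch known beforehand to be dense in peaks, all 3 were present in 25 of 82 windows (30.5%, 20.8 to 41.6). Leaving out chromosomes 5 and 19 gave 3.12% for all 3 over the rest. On each of the 19 chromosomes the lncRNA share was under the protein-coding share for every list. These shares by chromosome were not weighted for CpG ratio, so they do not compare windows of like ratio.

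Single genes were picked by rank, and genes outside that rule are said to have been chosen after their values were seen. Among the 10 genes with all 3 that ranked highest in their weakest list, AY036118 on chromosome 17 stood first, with a score of 3100 in each list. Its start lies with those of Gm42418 and Gm26917 under the same peak of 6071 bp in KMT9alpha, 6544 in KMT9beta and 6418 in H4K12me1. RefSeq annotates Rn18s-rs5, a sequence related to ribosomal 18S RNA, inside this stretch (39846354 to 39848202). Reads of such repeated sequence cannot be placed with certainty, so the scores of these 3 genes are uncertain. Without these 4 windows the share with all 3 was 3.85%. Gm34907 on chromosome 14, chosen after its values were seen, also had peaks of similar position in every list, at 1727.92, 2275.79 and 1569.61. Its windows were 39.6% to 40.7% repeat. Its KMT9beta and H4K12me1 scores lay far above the upper quartiles of lncRNA windows with such a peak (171.83 and 115.73). Its KMT9alpha score lay near that quartile (1602.69).

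Malat1 and Neat1, neighbouring genes on chromosome 19, both had all 3 peaks. Malat1 makes an abundant RNA of nuclear speckles, and its main starts (CpG ratio 0.73) carried KMT9alpha at 3100, KMT9beta at 479.77 and H4K12me1 at 395.52. The other 2 Malat1 windows, within the gene at ratios of 0.22 and 0.23, had KMT9alpha at 172.98 and KMT9beta at 53.11 and no mark. Neat1 makes the scaffold RNA of paraspeckles. Its main starts lay in a KMT9alpha peak of 7761 bp at 3100 and a KMT9beta peak of 8407 bp at 633.36, with H4K12me1 at 116.00 over the beginning of the gene. Frmd8os, which starts next to Neat1 on the other strand, lay under those same KMT9 peaks, and its downstream start (ratio 0.19) had H4K12me1 at 329.85. These are therefore not separate observations.

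Further genes of highest rank had KMT9alpha at 3100 and spread over 5 chromosomes. They were 2410080I02Rik near Klf9 (KMT9beta 432.81, H4K12me1 412.69), G730013B05Rik (417.59 and 290.87), 2610037D02Rik near Arid2 (402.82 and 270.38), 5430416N02Rik (322.54 and 208.43), AC132957.1 (253.82 and 157.27) and B930059L03Rik (233.06 and 173.64). 

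Genes with a single list or a pair were also found at high rank. KMT9alpha alone stood at 3100 at 1700030F04Rik and 2310040G24Rik, the first by symbol among genes tied at that score, Tug1 among them. KMT9beta alone was highest at Gm20476 (724.34) and Gm11755 (677.38). H4K12me1 alone was highest at 1700003G13Rik (229.01) and 1700125G02Rik (200.99). Both subunits without the mark led at 1300014J16Rik (3100 and 1013.43) and Mir17hg (3100 and 659.51). KMT9alpha with the mark led at 1700020I14Rik (3100 and 98.76) and 4930461G14Rik (1399.01 and 94.44), and KMT9beta with the mark at Gm26859 (581.83 and 640.38) and Gm49793 (688.07 and 448.69).

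Over all 6498 lncRNA genes, 7.66% had KMT9alpha in any window, 22.1% KMT9beta, 13.4% H4K12me1 and 3.59% all 3 in the same window. These shares rose with the number of windows, and for the 204 genes with 4 or more windows they were 24.5%, 48.0%, 35.8% and 12.7%. The counts by list are to be read beside both. Abundant and regulatory lncRNAs, with 79 windows, had KMT9alpha at 8 of the 13 genes in the set, KMT9beta at 11, H4K12me1 at 7 and all 3 in the same window at 4, namely Malat1, Neat1, Lockd and Lncpint. Lockd lies beside the cell cycle inhibitor gene Cdkn1b and had 3100, 131.23 and 126.85. Lncpint, described as p53-induced, had peaks unevenly over its 14 starts. At 6 starts with ratios of 0.62 to 0.78 all 3 were present, while 5 CpG-poor ones had only KMT9alpha, at 181.26. Pvt1, next to Myc, had KMT9alpha at 1136.41 and KMT9beta at 61.42 at its first 6 starts, without the mark. Its only H4K12me1 peak (87.73) lay at a start further inside the gene with KMT9beta at 83.14. The single Tug1 window in the set, at a start inside the gene that lay 2059 bp from the nearest protein-coding start, had KMT9alpha alone at 3100. That peak began upstream of this start and ran past the annotated 5′ end of the gene. Meg3 had KMT9beta alone at 58.39, and Rmst, a neuronal lncRNA, none in its 13 windows.

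All 4 snoRNA host genes in the set, with 22 windows, had both subunits. Over all lncRNA genes, counting any window, 3.72% had both subunits with the mark and 2.31% both without it. The highest CpG ratios of these 4 genes ran from 0.57 to 0.68. Of lncRNA windows at 0.5 to 0.6, 48.1% had KMT9alpha and 74.1% KMT9beta, and at 0.6 to 0.7, 59.7% and 82.3%. The part of CpG content in the count was not tested. snoRNA host genes carry small nucleolar RNAs, which guide modification of ribosomal RNA, in their introns. Snhg6 (KMT9alpha 3100, KMT9beta 81.58, H4K12me1 90.79) and Snhg12 (1472.86, 214.32, 109.73) had all 3, while Snhg20 (3100 and 162.09) and Epb41l4aos (3100 and 141.35) had no H4K12me1. Gas5, another snoRNA host, was not in the set.

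Among 8 microRNA host genes with 30 windows KMT9alpha was called at 3. Mir17hg, the host of the proliferative miR-17-92 cluster, had KMT9alpha at 3100 and KMT9beta at 659.51, both reaching into the window from upstream of the annotated start. Mir670hg had all 3, at 3103.91, 96.38 and 60.92, in 1 of its 7 windows. Mir9-3hg had KMT9beta at 188.40 and the mark at 125.62 without KMT9alpha, and Mir124-2hg and Mir133a-1hg, hosts of neuronal and muscle microRNAs, had none.

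Imprinted lncRNAs, which are transcribed from 1 parental allele, had KMT9beta at 5 of 6 genes (38 windows). KMT9alpha was called at 1 of the 6, a count too small to be set apart from either share. Airn, the antisense transcript of the Igf2r locus, had KMT9alpha at 632.37 and KMT9beta at 104.89 at its 5 clustered starts. Kcnq1ot1 had KMT9beta alone at 152.55, and Nespas had KMT9beta at 153.26 with H4K12me1 at 95.92. H19 had no peak in its 7 windows. None had all 3.

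Of 12 lncRNAs at loci of developmental transcription factors, with 27 windows, none had KMT9alpha, 4 had KMT9beta and 1 had H4K12me1. With 12 genes these counts lie near the 7.66%, 22.1% and 13.4% of all lncRNA genes. Hoxaas3 had KMT9beta at 210.17 and the mark at 73.83, Hoxb3os had KMT9beta at 165.85, Vax2os at 79.33 and Hoxd3os1 at 77.44. The other 8 had none, with Hotair, Dlx1as, Dlx6os1 and Pantr1 among them. Of the 11 lncRNAs reported in colorectal cancer, which overlap the other lists and have 61 windows, 7 had KMT9alpha, 8 KMT9beta, 4 H4K12me1 and 3 all 3 in the same window (Malat1, Neat1 and Lncpint), while H19 and Hotair had none. Over all lncRNA genes these 4 shares were 7.66%, 22.1%, 13.4% and 3.59%, and over genes with 4 or more windows 24.5%, 48.0%, 35.8% and 12.7%. The counts describe short lists, and no list was tested against other genes.

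**Figure D5:**
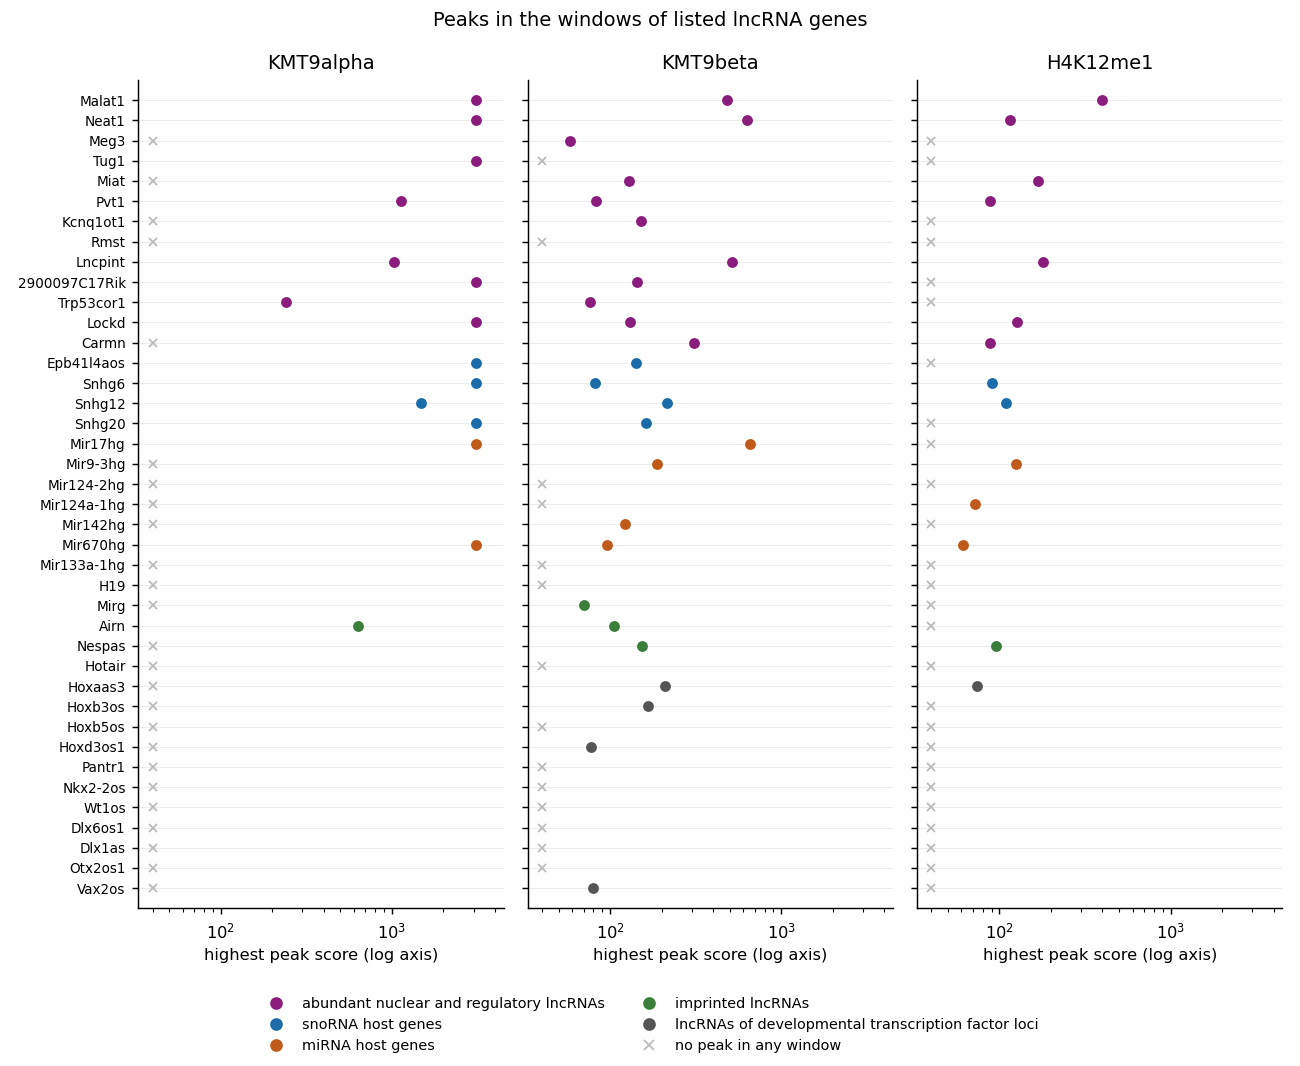
Highest peak score in any window (log axis, x) of listed lncRNA genes for the 3 peak lists. Rows are genes, coloured by the first list that holds each, with a cross where no window has a peak. Some rows are not described in the text, and not every listed gene is shown. The snoRNA host genes all have KMT9alpha points at 1472.86 or above, while the rows from Hotair to Vax2os have none and hold 4 KMT9beta points between 77.44 and 210.17.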

How the data were processed

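ChIP-seq libraries of KMT9alpha, KMT9beta and H4K12me1 were mapped by the authors to mm10 (STAR per the labels' protocols, Bowtie2 per the submitters' processing notes). The deposited peak lists give positions and a score per peak. The sources used here do not give the caller's settings, its control or what the score measures, and library depth is unknown. Nothing was recomputed from reads.

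Peaks on chromosomes 1 to 19 were intersected (1 bp or more) with windows of 1 kb either side of each distinct start of a gene in GENCODE M21, whose build (GRCm38) is that of mm10. CpG ratio, GC and repeat content came from the same genome. Protein-coding shares were weighted to the lncRNA windows over 5 CpG classes. Intervals are exact Clopper-Pearson 95% intervals or, for differences, normal intervals stratified by class, and cover counting error only. No p-value was computed. Windows with planted peaks were used to test the steps on simulated data.

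The members, comparisons and gene lists were chosen with earlier results of these data known. Named genes were the 10 with all 3 in a window and the highest rank (the lowest over the lists of the score percentile in its own list), the 2 highest for each other combination, up to 3 with all 3 and up to 2 with none per list, and Malat1, Neat1, Pvt1, H19, Meg3, Kcnq1ot1, Gas5 and Mir17hg. Ties in rank were broken by symbol. Some items that these rules or lists hold are not reported here. Software was scipy 1.17.1, matplotlib 3.10.9, pandas 2.3.3 and numpy 2.4.6 under Python 3.11.15.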

Additional observations from a re-analysis of the deposited data

How the results depend on the processing

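Across 24 other settings (160 values) every difference kept its negative sign, 53 values stayed inside the interval of the reported value and 107 moved outside it. Moved values are given here, shares in percent and differences (lncRNA minus weighted protein-coding) in percentage points. With windows of 500 bp either side, shares were 7.39% for KMT9alpha, 18.8% for KMT9beta, 10.2% for H4K12me1 and 3.03% for all 3, and differences -12.7 for KMT9alpha, -10.6 for H4K12me1 and -8.1 for all 3. With windows of 2 kb either side, shares were 10.4% for KMT9alpha, 28.5% for KMT9beta, 18.5% for H4K12me1 and 5.27% for all 3, and differences -15.7 for KMT9alpha, -13.4 for H4K12me1 and -11.7 for all 3. With no coding start within 5 kb, shares were 21.4% for KMT9beta and 12.5% for H4K12me1, and differences -19.2 for KMT9beta and -12.6 for H4K12me1. With no coding start within 20 kb, shares were 7.19% for KMT9alpha, 18.3% for KMT9beta, 10.7% for H4K12me1 and 2.79% for all 3, and differences -14.5 for KMT9alpha, -21.7 for KMT9beta, -13.9 for H4K12me1 and -10.1 for all 3. With only coding transcripts as coding starts, differences were -14.7 for KMT9alpha and -9.8 for all 3. With 1 window per gene, shares were 7.22% for KMT9alpha, 21% for KMT9beta, 12.6% for H4K12me1 and 3.28% for all 3, and differences -15.7 for KMT9alpha and -10 for all 3. With 1 entry per gene with its windows joined, shares were 7.66% for KMT9alpha, and differences -15.1 for KMT9alpha, -14.1 for H4K12me1 and -10.3 for all 3. With windows thinned to no overlap, shares were 6.95% for KMT9alpha, 20.8% for KMT9beta, 12.5% for H4K12me1 and 3.16% for all 3, and differences -9.9 for KMT9alpha, -14.2 for KMT9beta, -9.0 for H4K12me1 and -6.8 for all 3. With the peak midpoint inside the window, shares were 7.36% for KMT9alpha, 17.8% for KMT9beta, 11.1% for H4K12me1 and 2.54% for all 3, and differences -12.5 for KMT9alpha, -15.9 for KMT9beta, -10.7 for H4K12me1 and -7.9 for all 3. With most of the peak inside the window, shares were 7.31% for KMT9alpha, 17.7% for KMT9beta, 11.1% for H4K12me1 and 2.45% for all 3, and differences -12.5 for KMT9alpha, -15.3 for KMT9beta, -10.6 for H4K12me1 and -7.7 for all 3. With peaks at or above the median score of their list, shares were 4.97% for KMT9alpha, 14.3% for KMT9beta, 7.45% for H4K12me1 and 1.56% for all 3, and differences -12.9 for KMT9alpha, -8.2 for H4K12me1 and -6.1 for all 3. With the same number of top peaks per list, shares were 8.56% for KMT9beta, 6.39% for H4K12me1 and 1.86% for all 3, and differences -15.8 for KMT9beta, -7.9 for H4K12me1 and -6.0 for all 3. With chromosomes 5 and 19 left out, shares were 7.60% for KMT9alpha, 21.2% for KMT9beta, 12.1% for H4K12me1 and 3.12% for all 3. With transcripts of support level 1 or 2, shares were 10.4% for KMT9alpha, 24.7% for KMT9beta, 14.4% for H4K12me1 and 4.70% for all 3. With 10 CpG classes, differences were -9.4 for KMT9alpha, -14.9 for KMT9beta, -9.4 for H4K12me1 and -6.3 for all 3. With classes of width 0.05, differences were -8.1 for KMT9alpha, -14.1 for KMT9beta, -8.5 for H4K12me1 and -5.0 for all 3. With CpG classes crossed with GC content, differences were -9.9 for KMT9alpha, -10.3 for KMT9beta, -5.9 for H4K12me1 and -5.5 for all 3. With the ratio over 250 bp either side, differences were -15.8 for KMT9alpha, -20.1 for KMT9beta, -13.1 for H4K12me1 and -10.7 for all 3. With no CpG weighting, differences were -38.8 for KMT9alpha, -39.1 for KMT9beta, -26.6 for H4K12me1 and -25.8 for all 3. With classes of width 0.05 and 1 window per gene, differences were -9.5 for KMT9alpha, -13.7 for KMT9beta, -8.1 for H4K12me1 and -5.1 for all 3.

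Coding windows without a nearby lncRNA start, leaving out 3 to 33 Mb of chromosome 5, removing peaks that touch coding windows and leaving out the 18S-related stretch moved no value outside its interval. Removing peaks that touch coding windows gives no difference, since it empties the coding windows. Leaving out the 18S-related stretch and the narrow classes with 1 window per gene were chosen after seeing the data. No paired analysis was possible because each antibody has 1 library. Unknown depth limits what an absent peak means, and with 1 library per antibody the spread between cultures was not measured.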
